A study of Mus musculus with 1187 samples.

Results

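Interferon-stimulated genes are the antiviral programme that cells switch on when they sense interferon, and 36 of them were followed here among the 46517 genes counted in single endothelial cells of the mouse brain. The 36 were taken as a named list, chosen with earlier results of these data known, and all 36 had a row in the count table. The cells came from adult (3-month-old) C57BL/6 mice carrying the Pdgfb ret allele, in which the growth factor PDGF-B lacks the motif that retains it near the vessel, together with a Cldn5-GFP and a Cspg4-DsRed reporter. The labels name 590 cells as Pdgfb ret/+ (control) and 597 as Pdgfb ret/ret (pericyte-deficient), and both groups carried the same reporters. Cells were sorted for green fluorescence, driven by the tight junction gene Cldn5, and against red fluorescence, driven by the mural cell gene Cspg4, into wells, and each well became a full-length Smart-seq2 library without molecular identifiers.

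The count table names wells by plate (521, 522, 523 and 524) and position, and the labels name neither. No cell could therefore be given a genotype from its label. Plates 521 to 524 held 300, 290, 285 and 312 cells. Plates 521 and 522 together held as many cells as are labelled ret/+, and 523 and 524 as many as ret/ret. That match is in numbers only. Contrasts between these pairs of plates below may also be contrasts of genotype, and none is given as one. The 1187 cells were handled as 1 pooled sample, the labels name no animal, and plate, genotype and animal cannot be told apart. With 1 sample there was no replicate test and no p-value. Values by plate stand in for the spread, and the 95% intervals given cover counting error only, since reads without molecular identifiers are not independent molecules. Cells had 100779 to 584112 reads assigned to genes (median 360947). For shares of cells, each cell was thinned at random to 100000 reads, a depth that every cell reached, and a gene counted as read in a cell with at least 1 read left. The median number of genes read at that depth was 4151.5, 3899, 3280 and 3468.5 on plates 521 to 524. The 8 endothelial markers summed to 15251 CPM (reads per 1000000 assigned reads) over all cells, with 14230 to 15981 on single plates. Of the other cell types, 11 microglia and macrophage markers summed to 117.9 CPM, 10 markers of other leukocytes to 31.0 CPM and 8 pericyte markers to 66.9 CPM. The microglial gene Tmem119, the T cell gene Cd3e and the neutrophil genes S100a8 and S100a9 stood under 1 CPM.

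Type I interferons (alpha and beta) bind the receptor pair IFNAR1 and IFNAR2, and interferon gamma binds IFNGR1 and IFNGR2. Both act through JAK kinases and STAT proteins. Complexes that hold IRF9 bind the interferon-stimulated response element, whose core repeats GAAA, while the gamma-activated site has the core TTCNNNGAA. Endothelial cells carry these receptors and, lining the vessels, meet interferon that circulates in blood.

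The upstream sequences of 6 members are shown because these genes, as described further on, were often read in the same cells (Ifit1, Ifit3 and Isg15, and the neighbours Rsad2 and Cmpk2) or belong to the abundant guanylate-binding group (Gbp7). Each is the 160 bases before the gene start in RefSeq on GRCm38.p6, 5′ to 3′ on the strand of the gene, and capitals mark GAAANNGAAA on either strand, which reads as a TTTC repeat when it lies on the opposite strand, overlapping copies included.
Ifit1, chr19:34640729-34640888, plus strand: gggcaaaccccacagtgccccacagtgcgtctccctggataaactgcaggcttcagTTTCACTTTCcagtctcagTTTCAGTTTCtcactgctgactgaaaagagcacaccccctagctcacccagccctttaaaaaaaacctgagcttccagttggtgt
Ifit3, chr19:34583369-34583528, plus strand: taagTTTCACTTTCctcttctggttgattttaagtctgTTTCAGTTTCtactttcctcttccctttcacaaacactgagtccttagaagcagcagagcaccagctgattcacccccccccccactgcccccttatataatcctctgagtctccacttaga
Isg15, chr4:156200819-156200978, minus strand: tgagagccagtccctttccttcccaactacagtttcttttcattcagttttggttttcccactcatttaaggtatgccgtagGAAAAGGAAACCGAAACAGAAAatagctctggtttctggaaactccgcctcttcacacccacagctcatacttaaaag
Gbp7, chr3:142530176-142530335, plus strand: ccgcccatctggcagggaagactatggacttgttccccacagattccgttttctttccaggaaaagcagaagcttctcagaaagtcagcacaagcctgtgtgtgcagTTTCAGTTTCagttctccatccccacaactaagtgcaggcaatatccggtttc
Rsad2, chr12:26456453-26456612, minus strand: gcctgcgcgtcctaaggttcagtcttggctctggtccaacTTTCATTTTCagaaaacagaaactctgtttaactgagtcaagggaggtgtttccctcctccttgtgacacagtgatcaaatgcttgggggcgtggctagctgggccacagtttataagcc
Cmpk2, chr12:26469055-26469214, plus strand: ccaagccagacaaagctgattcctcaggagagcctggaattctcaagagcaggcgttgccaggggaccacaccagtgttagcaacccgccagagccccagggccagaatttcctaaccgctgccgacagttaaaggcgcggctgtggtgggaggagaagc
The Isg15 stretch holds 3 overlapping copies in a row, those of Ifit1 and Ifit3 hold 2 spaced copies each, and those of Gbp7 and Rsad2 hold 1. The Cmpk2 stretch holds 0, which says only that these letters are not in this window. In the 300-base windows from 250 before to 50 after the start, GAAANNGAAA was found in 14 of the 28 members that the RefSeq table holds, against 3.99% of 27025 genes. TTCNNNGAA was found in 7 of the 28 members and in 9.55% of genes. Zbp1, Oas2, Usp18, Mx1, Mx2, Parp9, Parp14 and Rtp4 were not in the table. In Ifitm3 (starts 2 and 19 bases after the gene start), Ddx58 and Ifih1 the GAAANNGAAA match lay after the start. A match is a description of letters and not a measured binding site.

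Brain endothelial cells carried most of the list at moderate level without any added stimulus that the labels name. Over all cells, 34 of 36 members reached 5 CPM and 23 reached 100 CPM. The member median was 130.5 CPM, against 41.2 CPM for the 11461 genes at 5 CPM or more. Per kilobase of exon (GENCODE M21), the member median was 30.7 CPM against 9.49 for those genes. Together the members took 0.539% of all reads, with 0.506%, 0.561%, 0.518% and 0.572% on plates 521 to 524. The median member was read in 41.7% of cells at fixed depth, and 19 of 36 had a median of 0 CPM over cells, so most members were read in part of the cells only.

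**Figure D1:**
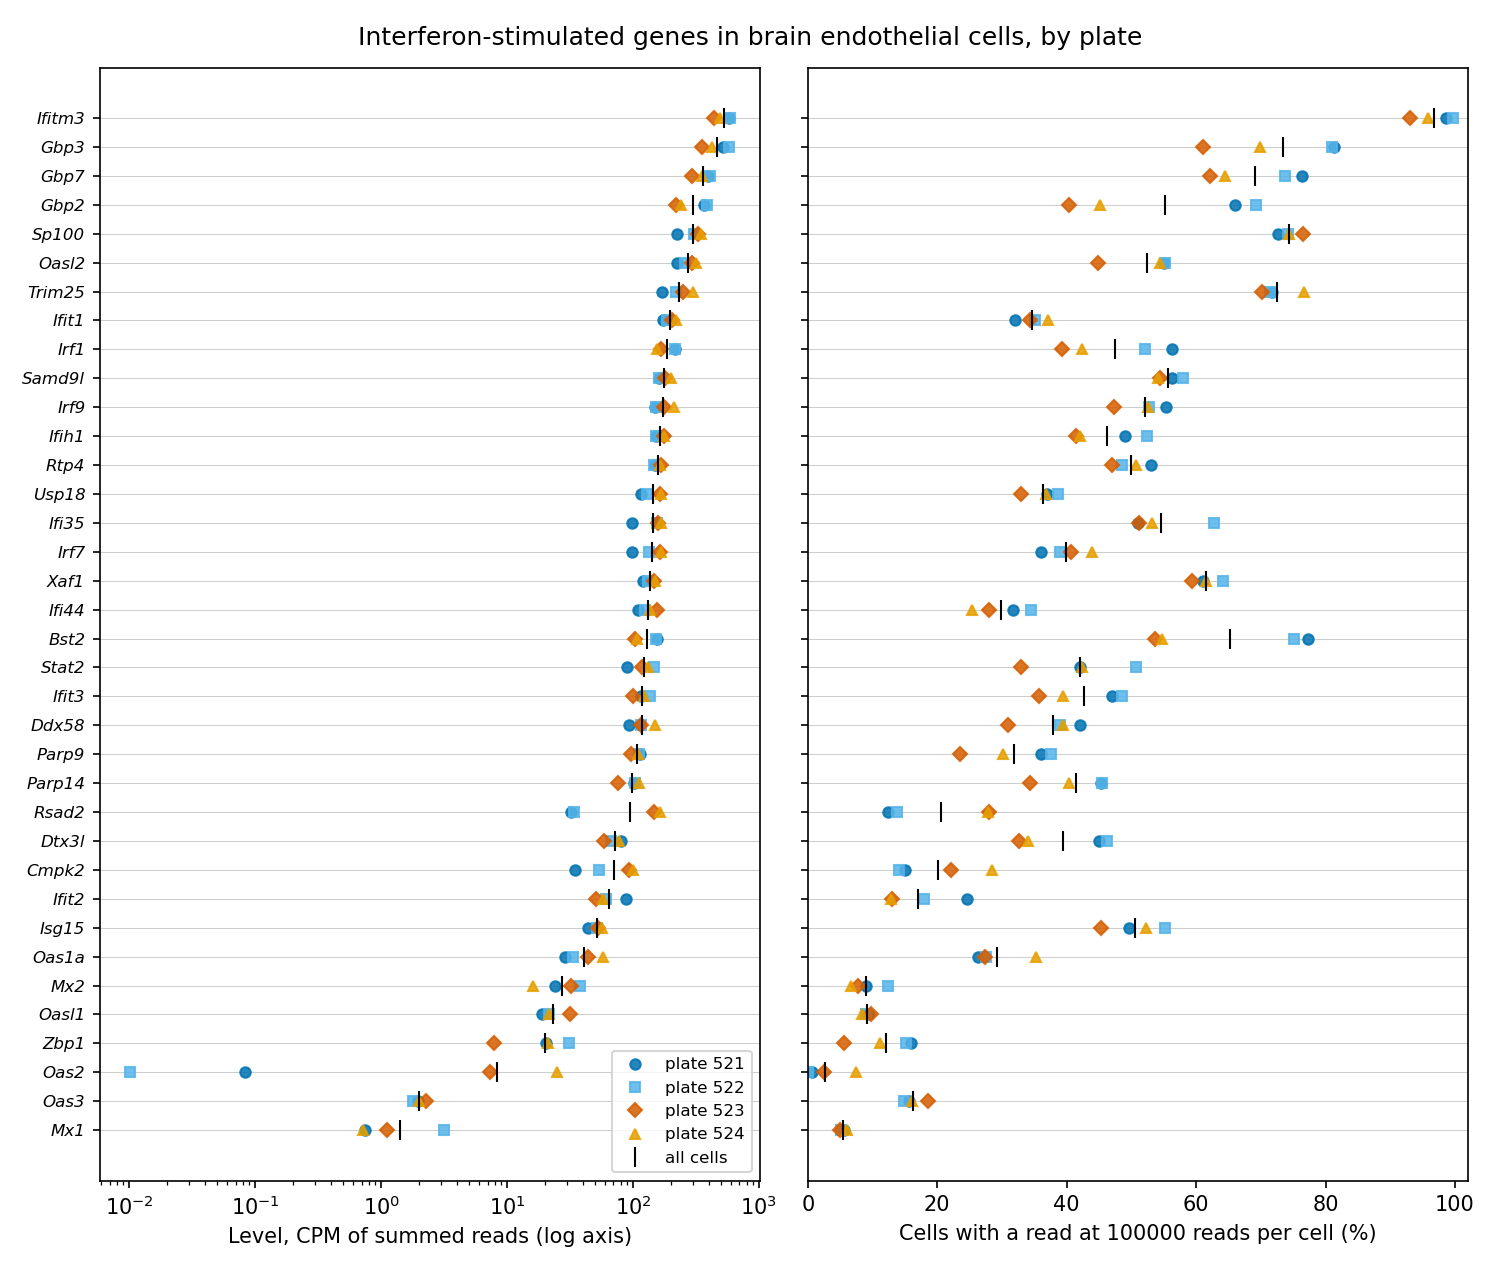
Level of each of the 36 members as CPM of summed reads (left, log axis) and share of cells with a read at 100000 reads per cell (right, percent); points are the 4 plates and black ticks are all 1187 cells. Ifitm3 is at the top with 525.3 CPM, Rsad2 and Cmpk2 split by plate, and Oas2 lies far lower on plates 521 and 522 than on 523 and 524.

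Of the 2 membrane restriction proteins, Ifitm3 was read in more cells than any other member. Ifitm3, which hinders fusion of viruses in endosomes (chr7:141009586-141010770, minus strand), stood at 582.3, 589.3, 436.9 and 494.1 CPM on plates 521 to 524, and at 525.3 CPM over all cells (523.1 to 527.5). It was read in 96.8% of cells (95.6% to 97.7%). Bst2, which encodes tetherin, the protein that holds budding virions at the membrane, stood at 155.6, 151.5, 103.9 and 108.1 CPM and was read in 65.2% of cells. For both genes plates 521 and 522 lay above plates 523 and 524. Per kilobase of exon, Ifitm3 stood at 774.8 CPM, Gbp3 at 143.6 and Bst2 at 143.5, the 3 highest of the 36.

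Among the GTPases the guanylate-binding genes were abundant, Mx2 was low and Mx1 was near 0. Gbp3 stood at 520.8, 582.1, 351.5 and 425.4 CPM on plates 521 to 524, Gbp7 at 391.9, 405.8, 296.3 and 350.3 CPM, and Gbp2 at 363.9, 389.3, 221.0 and 239.5 CPM. These 3 genes lie in 1 cluster on chromosome 3 and encode proteins that attack vacuoles of intracellular microbes, and each was lower on both plates 523 and 524 than on 521 and 522. They were read in 73.4%, 69.2% and 55.2% of cells. The guanylate-binding genes are related in sequence, and how reads shared between copies were counted is not stated. Gbp7 also shares 637 exonic bases on the same strand with the pseudogene Gm43802. Mx2, annotated as a polymorphic pseudogene, stood at 27.2 CPM in 8.93% of cells. Mx1, whose product is truncated in most laboratory strains, stood at 0.739, 3.18, 1.11 and 0.725 CPM on plates 521 to 524, and the 12 highest cells held 64.2% of its reads.

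The 4 transcription factors were all read in a good part of the cells. Irf9, the DNA-binding part of the type I interferon response complex, stood at 149.9, 152.3, 175.4 and 212.5 CPM on plates 521 to 524 (52.1% of cells). Stat2 stood at 121.4 CPM over all cells and Irf1, a factor induced by interferon gamma as well as by type I interferon, at 188.0 CPM. Irf7, the amplifier of type I interferon production, stood at 98.3, 135.2, 164.9 and 167.4 CPM (39.9% of cells). Irf7 was lowest on plate 521, and Irf1 ran the other way with 216.8, 214.5, 167.1 and 155.3 CPM.

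Sensors of foreign nucleic acid were present as well. Ifih1, which encodes the long double-stranded RNA sensor MDA5, stood at 165.4 CPM (153.2 to 177.4 over plates) and Ddx58, which encodes the RNA sensor RIG-I, at 118.4 CPM (92.9 to 148.6). Zbp1, a sensor of Z-form nucleic acid, was low at 20.0 CPM in 12.0% of cells, with 7.81 CPM on plate 523 and 31.0 CPM on plate 522.

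The IFIT genes, whose products bind viral RNA, lie next to each other on chromosome 19. Ifit1 stood at 172.8, 187.9, 204.5 and 217.9 CPM on plates 521 to 524 and was read in 34.7% of cells. Ifit3 stood at 115.0, 137.5, 99.2 and 123.4 CPM in 42.7% of cells, and Ifit2 at 64.7 CPM in 17.1%. The highest plate was 1.26 times the lowest for Ifit1, 1.39 times for Ifit3 and 1.74 times for Ifit2. Ifit3 has a near-identical copy, Ifit3b, so its reads may be split between the 2 genes.

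In the ISG15 system, which attaches a ubiquitin-like protein to other proteins, Isg15 itself stood at 44.1, 51.7, 52.7 and 57.2 CPM in 50.6% of cells. As a short transcript, per kilobase of exon it stood at 68.0 CPM. Usp18, which removes ISG15 and dampens the receptor, stood at 144.3 CPM and Trim25, a ubiquitin ligase that activates RIG-I, at 234.0 CPM. Trim25 stood at 169.7, 219.2, 248.3 and 297.7 CPM on plates 521 to 524, lowest on plate 521.

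Active enzymes of the OAS family make the signal that activates RNase L, and levels in the family ran from 2.00 to 274.1 CPM. Oasl2 stood at 223.8, 260.5, 294.0 and 317.7 CPM in 52.5% of cells, Oas1a at 28.9, 33.5, 44.2 and 57.7 CPM in 29.2%, and Oasl1 at 23.4 CPM in 9.10%. Oas2 stood at 0.0831, 0.0101, 7.26 and 25.1 CPM on plates 521 to 524. It was read in 2.70% of cells, and the 12 cells with most of its reads held 80.9% of them, 10 on plate 524 and 2 on plate 523. Oas3 stood at 2.00 CPM in 16.3% of cells, with a median of 1 read in a cell that had any at fixed depth, which is close to the lowest value that can be seen.

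Parp9 and Dtx3l, which encode partners in 1 complex of ADP-ribosylation and ubiquitylation, stood at 107.4 and 71.4 CPM, and the related Parp14 at 98.3 CPM. Over plates they ran from 96.2 to 113.2, from 59.3 to 80.4 and from 76.5 to 111.0 CPM. Among the other effectors, the nuclear body gene Sp100 stood at 301.3 CPM and Samd9l, an inhibitor of translation, at 177.0 CPM. Rtp4 stood at 157.0, Ifi35 at 144.2, the apoptosis factor Xaf1 at 137.1 and Ifi44 at 131.5 CPM. Ifi35 overlaps an antisense gene, Gm11626, over 290 exonic bases, where reads could count for either. Rtp4 shares 296 exonic bases on the same strand with Gm45338.

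Apart from Oas2, which rests on few cells, Rsad2 and Cmpk2 had the widest gap between plates of the members for which 523 and 524 both lay above 521 and 522. Rsad2 encodes viperin, which makes a chain-terminating nucleotide, and Cmpk2 encodes a nucleotide kinase that supplies its substrate. They are neighbours on chromosome 12 (26442746 to 26456452, minus strand, and 26469204 to 26479837, plus strand). Rsad2 stood at 32.5, 33.9, 146.6 and 165.0 CPM on plates 521 to 524 and was read in 12.3%, 13.8%, 28.1% and 27.9% of cells. Cmpk2 stood at 34.8, 54.0, 92.6 and 100.6 CPM and was read in 15.0%, 14.1%, 22.1% and 28.5% of cells. For both genes plates 523 and 524 lay above 521 and 522 in level and in share of cells, although fewer genes were read per cell there. The highest plate was 5.08 times the lowest for Rsad2 and 2.89 times for Cmpk2.

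Over all 4 plates, members passed the fold line between plates about as often as other genes. With 1 CPM added, the highest plate was at least 1.5-fold above the lowest for 16 of the 34 members at 5 CPM or more on any plate, against 54.0% of all 12428 such genes, and the median fold was 1.47 for members and 1.55 for all genes. Without plate 521, 8 of 34 members passed (23.5%), against 41.2% of all genes. The order of the plates was also counted, a choice made after the values were seen. For 20 of the 34 members both plates 523 and 524 lay above both 521 and 522, an order that 22.1% of all genes had. The reverse held for 8 members, Irf1, Ifit2, Gbp2, Gbp3, Gbp7, Bst2, Ifitm3 and Parp9, and for 25.5% of all genes. With TMM scaling (a trimmed mean that evens out library composition) the counts were 18 and 8, and with the mean of the CPM of each cell 17 and 9. The share of cells followed the same order for 5 of the 20 (Irf7, Oas2, Rsad2, Cmpk2 and Sp100) and not for the other 15. Oasl2, for example, was read in 55.0%, 55.2%, 44.9% and 54.5% of cells. For those 15 no order is read. The 8 members of the reverse order all kept it in the share of cells. Fewer genes were read per cell on plates 523 and 524 (median 3280 and 3468.5) than on 521 and 522 (4151.5 and 3899). The part of this in the shares was not tested. Other measures moved with plate too, and their part in these differences was not tested. On plates 521 to 524 the sum of the 11 venous markers was 2916, 2317, 1057 and 977.2 CPM, that of the 10 capillary markers 5682, 7429, 10602 and 10077 CPM, and that of the pericyte markers 23.1, 25.5, 136.8 and 81.7 CPM.

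Cells differed widely in how many members they had on, that is, with a read. At fixed depth a cell had a read of 2 to 33 of the 36 members, with a median of 14 (11 to 19 between the 25th and 75th percentiles). At least 10 members were read in 83.0% of cells (985 of 1187, 80.7% to 85.1%), with 85.7%, 88.3%, 76.5% and 81.4% on plates 521 to 524. At least 20 were read in 21.0% of cells (249 cells, 18.7% to 23.4%) and at least 25 in 6.23% (74 cells). The summed level of the list per cell ran from 69.2 to 19936 CPM with a median of 4673 CPM. No group of cells stood apart: the counts per cell formed 1 broad hump. Cells with more members on also had more genes read in all (median 3124.5 genes with 0 to 9 members on and 4374 with 20 or more), at like total reads (343977 and 365098). Spearman's rho between members on and genes read was 0.53, 0.49, 0.37 and 0.50 within plates 521 to 524. The microglia and macrophage markers summed to 112.1 CPM in the cells with 20 or more members on and to 119.5 CPM in the rest, the other leukocyte markers to 23.4 and 33.0 CPM, and the pericyte markers to 34.7 and 75.4 CPM.

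The cells with many members on were described member by member (these shares were built from the same reads as the bins). From cells with 0 to 9 members on to cells with 20 or more, the share with an Ifit1 read went from 9.90% to 72.7%, that of Ifit3 from 10.9% to 80.7%, that of Rtp4 from 14.9% to 82.3% and that of Isg15 from 18.3% to 85.9%. Ifitm3 was already read in 88.6% of the cells with few members on. Trim25 and Sp100 were each read in 49.0% of those cells and Gbp3 in 46.0%. Zbp1, Oasl1 and Mx2 came mainly with many members on, at 30.9%, 26.9% and 24.1% of the cells with 20 or more, against 1.49%, 1.98% and 2.97% of the cells with few. Oas3 had 13.9% and 19.3%.

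**Figure D2:**
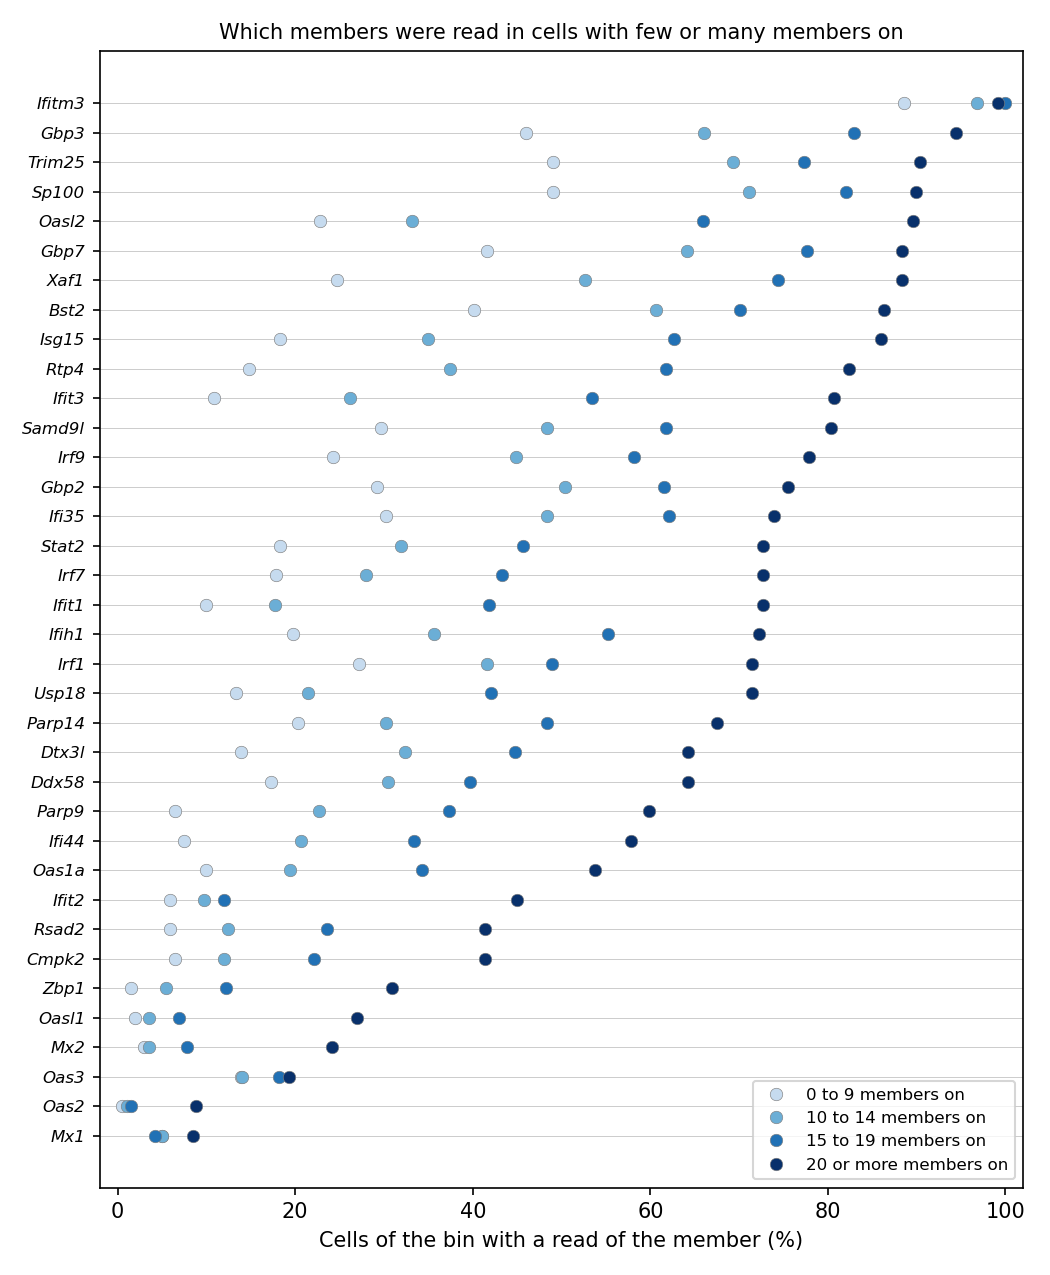
Share of cells with a read of each member (x axis, percent, at 100000 reads per cell) in cells with 0 to 9, 10 to 14, 15 to 19 and 20 or more of the 36 members on (202, 401, 335 and 249 cells). Ifit1, Ifit3, Isg15 and Rtp4 spread widely from left to right, Ifitm3 is high in all 4 bins, and Oas3 and Mx1 are low in all 4.

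Levels of member pairs went together across cells more than those of other gene pairs, and each correlation was weak in these sparse counts. Among the 35 members read in at least 5% of cells (Oas2 was below), 564 of 595 pairs had a Spearman correlation above 0, averaged over the 4 plates, and the median was 0.0987 (0.109, 0.0975, 0.0950 and 0.0995 on plates 521 to 524). Over all pairs of the 12553 genes so read the median was 0.0126. A rho of 0.2 or more was reached by 40 member pairs (6.72%) and by 0.0422% of all pairs. With the number of genes read per cell taken out, the medians were 0.0838 for members and 0.000787 for all pairs. The points of each correlation are cells that share plates, reagents and depth, and so no p-value is given.

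The strongest pairs joined the IFIT genes, Isg15 and Oasl2. Ifit1 and Ifit3 had rho 0.36 (0.46, 0.38, 0.34 and 0.28 on plates 521 to 524). Of the 412 cells with an Ifit1 read, 63.3% had an Ifit3 read, against 31.7% of the cells without one. Ifit3 and Isg15 had rho 0.34, with Isg15 read in 67.1% of cells with and 38.4% of cells without Ifit3. Ifit3 and Oasl2 had rho 0.33 (68.8% and 40.3%). Parp9 and Dtx3l followed with 0.31 (63.2% and 28.3%). These 2 genes start head to head on chromosome 16 and share 458 exonic bases on opposite strands, and without a stated strand setting reads there could count for either. Rsad2 and Cmpk2 had rho 0.25, with Cmpk2 read in 41.0% of the 244 cells with an Rsad2 read and in 14.6% of the others. Bst2 and Ifitm3 also had rho 0.25.

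Members differed in how closely they followed the rest. The median rho of a member to the other 34 was highest for Ifit1 and Ifit3 (each 0.17), Isg15 and Oasl2 (each 0.17), Usp18 and Irf7 (each 0.14). It was 0.076 for Ddx58, 0.071 for Irf1, 0.068 for Trim25 and 0.067 for Gbp2. Oas3 and Mx1 stood at 0.0048 and 0.0024, and their own median rho to all genes was 0.0054 and 0.0013. Mx1 had its highest rho with its neighbour Mx2 (0.14).

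**Figure D3:**
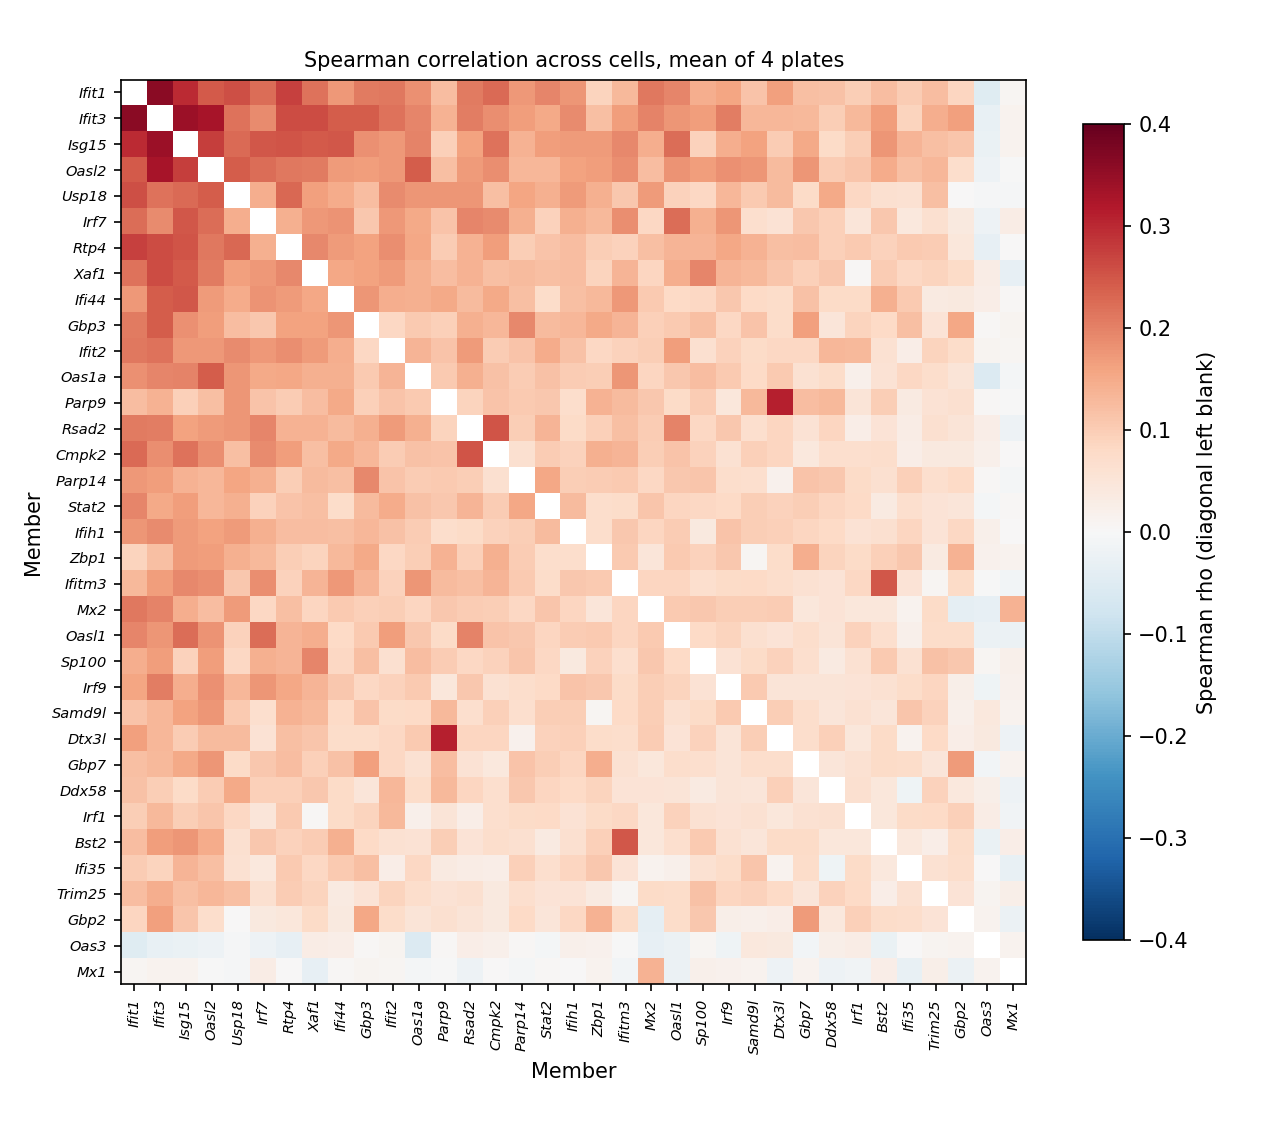
Spearman correlation across cells between each pair of the 35 members read in at least 5% of cells, averaged over 4 plates (colour scale from -0.4 to 0.4), members ordered by their median correlation to the others. Ifit1, Ifit3, Isg15 and Oasl2 form the reddest corner, Parp9 with Dtx3l, Rsad2 with Cmpk2 and Bst2 with Ifitm3 stand out as single pairs, and Oas3 and Mx1 are near 0 throughout.

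The genes outside the list whose level most followed the number of members on included several immunity-related GTPases. Among 9965 non-members read in at least 10% of cells, the 10 with the highest rho to the number of members on (mean of 4 plates) were Ifit3b (0.43), Tgtp2 (0.34), RP23-27C9.6 (0.34), Irgm1 (0.34), Rnf213 (0.33), Irgm2 (0.32), Igtp (0.32), Ifi47 (0.30), Gm12250 (0.30) and Lgals9 (0.30). Tgtp2, Irgm1, Irgm2, Igtp and Ifi47 encode immunity-related GTPases, the family that lyses vacuoles of parasites in mice. Reads of Ifit3b can come from Ifit3 itself. The median over all 9965 non-members was 0.063. With genes read per cell taken out it was 0.0052, and 18 genes (0.181%) were at 0.2 or more. Of the 38 so read genes on a separate list of 44 interferon-stimulated genes, 8 (21.1%) were at 0.2 or more, with a median of 0.16. That list was chosen with earlier results of these data known. Ifit3b, Irgm1, Irgm2, Igtp and Ifi47, already named above, are among the 8, so their share is a description only.

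The interferon receptors were present and the interferons themselves were not detectable above traces. Ifnar1 stood at 408.0, 440.4, 438.7 and 424.4 CPM on plates 521 to 524 and Ifnar2 at 326.3, 348.6, 393.3 and 394.9 CPM. Ifngr1 stood at 152.0 CPM and Ifngr2 at 68.6 CPM. Il10rb, a chain shared by the receptors of interferon lambda and interleukin-10, stood at 464.7 CPM, while the lambda-specific chain Ifnlr1 stood at 0.105 CPM. None of the 10 interferon genes listed reached 5 CPM, and the highest was Ifnk at 0.167 CPM. Ifna1, Ifng and Ifnl3 had 0 reads in 418924921, which allows up to 0.00716 CPM by the limit of 3 reads. Of 7 inhibitors, 4 were at 5 CPM or more, with Trim30a at 137.5, Pias1 at 82.5, Socs3 at 67.7 and Ptpn2 at 37.9 CPM. Socs1, which blocks JAK kinases, stood at 2.87 CPM.

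Cells with a read of Bmx or Gkn3 were then set against all other cells. Bmx encodes a tyrosine kinase of arterial endothelium and Gkn3 a gastrokine found in brain arteries. At fixed depth 373 cells had a read of either gene (31.4%, 28.8% to 34.2%), with 129, 113, 61 and 70 cells on plates 521 to 524. These cells carried 334.2 CPM of Bmx and 352.8 CPM of Gkn3, and 14 of 15 other arterial markers were at least 1.5-fold higher in them than in the rest, among them Gja4 (125.7 against 6.33 CPM) and Fbln5 (139.5 against 2.55 CPM). They had more genes read per cell (median 3969 against 3512.5), at like total reads (357946 and 362408). Capillary markers summed to 5905 CPM in these cells and 9604 CPM in the rest, with 6 of 10 at least 1.5-fold lower, and 5 of 9 tested venous markers were lower. Pericyte markers summed to 38.4 and 79.8 CPM (3 of 3 tested lower) and fibroblast markers to 31.9 and 18.9 CPM (3 of 3 tested higher). The part of these differences in the results below was not tested. Smooth muscle markers summed to 48.1 CPM in them and 27.5 CPM in the rest, of which Mylk made up 35.5 and 14.2 CPM, and Myh11 and Cnn1 were under 1 CPM in both.

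The summed level of the list was 5866 CPM in Bmx or Gkn3 cells and 5176 CPM in all other cells, and few members differed by much. Of the 34 members at 5 CPM or more on either side (Oas3 and Mx1 were below), 27 had a log2 ratio above 0 and 7 below. The median was 0.16, against 0.01 over 11833 genes. Within plates 521 to 524 the median was 0.19, 0.14, 0.13 and 0.24, against 0.003, 0.016, 0.004 and -0.013 over all genes. The share of all genes above 0 was not counted, so the 27 of 34 is a description only. At least 1.5-fold higher were 2 members, Ifitm3 and Oas2, against 8.00% of all genes, and 0 were 1.5-fold lower, against 5.94%. The cells were split by 2 arterial genes and not by any member.

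Ifitm3 stood at 692.6, 710.8, 628.5 and 667.3 CPM in the Bmx or Gkn3 cells of plates 521 to 524, and at 500.1, 515.2, 386.7 and 439.3 CPM in the other cells. Every value of the first set lay above every value of the second. The pooled log2 ratio was 0.59 (682.3 against 453.7 CPM), just past the line of 1.5-fold. Within plates 521 to 524 it was 0.47, 0.46, 0.70 and 0.60. Plates 521 and 522 lay below that line and held 129 and 113 of the 373 Bmx or Gkn3 cells. Ifitm3 also stood higher over all cells of those plates, and the part of this in the pooled ratio was not tested. The pooled ratio fell just short of the line under several other settings (0.51 to 0.58), for example at 0.58 with TMM scaling. Its direction did not turn in any.

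Most of the Oas2 difference came from plate 524. It stood at 0.195, 0, 12.1 and 91.1 CPM in the Bmx or Gkn3 cells of plates 521 to 524 and at 0, 0.0163, 5.98 and 4.16 CPM in the rest. The pooled log2 ratio of 2.45 became 0.07 without plate 524, where Ifitm3 stood at 0.58 and the 2 members past 1.5-fold were Zbp1 and Parp9. Of the 12 cells with most Oas2 reads, 10 were Bmx or Gkn3 cells, and these 12 had 14 to 29 members on. Without them the median log2 ratio of the list was 0.088 and 0 of 33 tested members were 1.5-fold higher, with Ifitm3 at 0.58. Oas2 then lay under 5 CPM on both sides and was not tested, and its ratio was 1.49.

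Higher in the Bmx or Gkn3 cells of all 4 plates, by any amount, were 11 members: Zbp1, Irf7, Stat2, Ifit1, Ifit3, Oas1a, Isg15, Usp18, Bst2, Ifitm3 and Cmpk2. Among all genes 10.1% had that direction in all 4 plates. No tested member was lower in all 4, against 10.8% of genes. Ifit3 stood at 138.8, 147.5, 134.9 and 181.5 CPM in these cells of plates 521 to 524 against 97.2, 131.4, 89.9 and 105.1 CPM in the rest, a pooled log2 ratio of 0.51. Irf7 stood at 116.1, 152.9, 202.3 and 233.9 against 85.0, 124.3, 155.1 and 146.4 CPM, a ratio of 0.32. The pooled ratio was below 1.5-fold for all of these but Ifitm3. Of their 44 plate ratios, 13 in 9 members passed 1.5-fold, and they ran from 0.0094 (Stat2 on plate 524) to 1.28 (Cmpk2 on plate 521). These 11 members were picked for ratios above 0 in all 4 plates, and no such count was made over all genes. Below 0 in the pooled ratio were Ifih1 (-0.25), Ifi35 (-0.24), Samd9l (-0.20), Rsad2 (-0.17), Ddx58 and Trim25 (each -0.16) and Sp100 (-0.14). For 3 members the pooled ratio went against most plates. Rsad2 had 0.80, 0.78, 0.21 and -0.03 on plates 521 to 524, while Gbp2 (0.09 pooled) and Gbp7 (0.05 pooled) were each higher on 1 plate only. Within plates 521 to 524 the members above 0 numbered 25 of 33, 22 of 34, 21 of 34 and 28 of 34, and the share of all genes above 0 was not counted. Plates 521 and 522, where Rsad2 was low, held 242 of the 373 Bmx or Gkn3 cells.

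**Figure D4:**
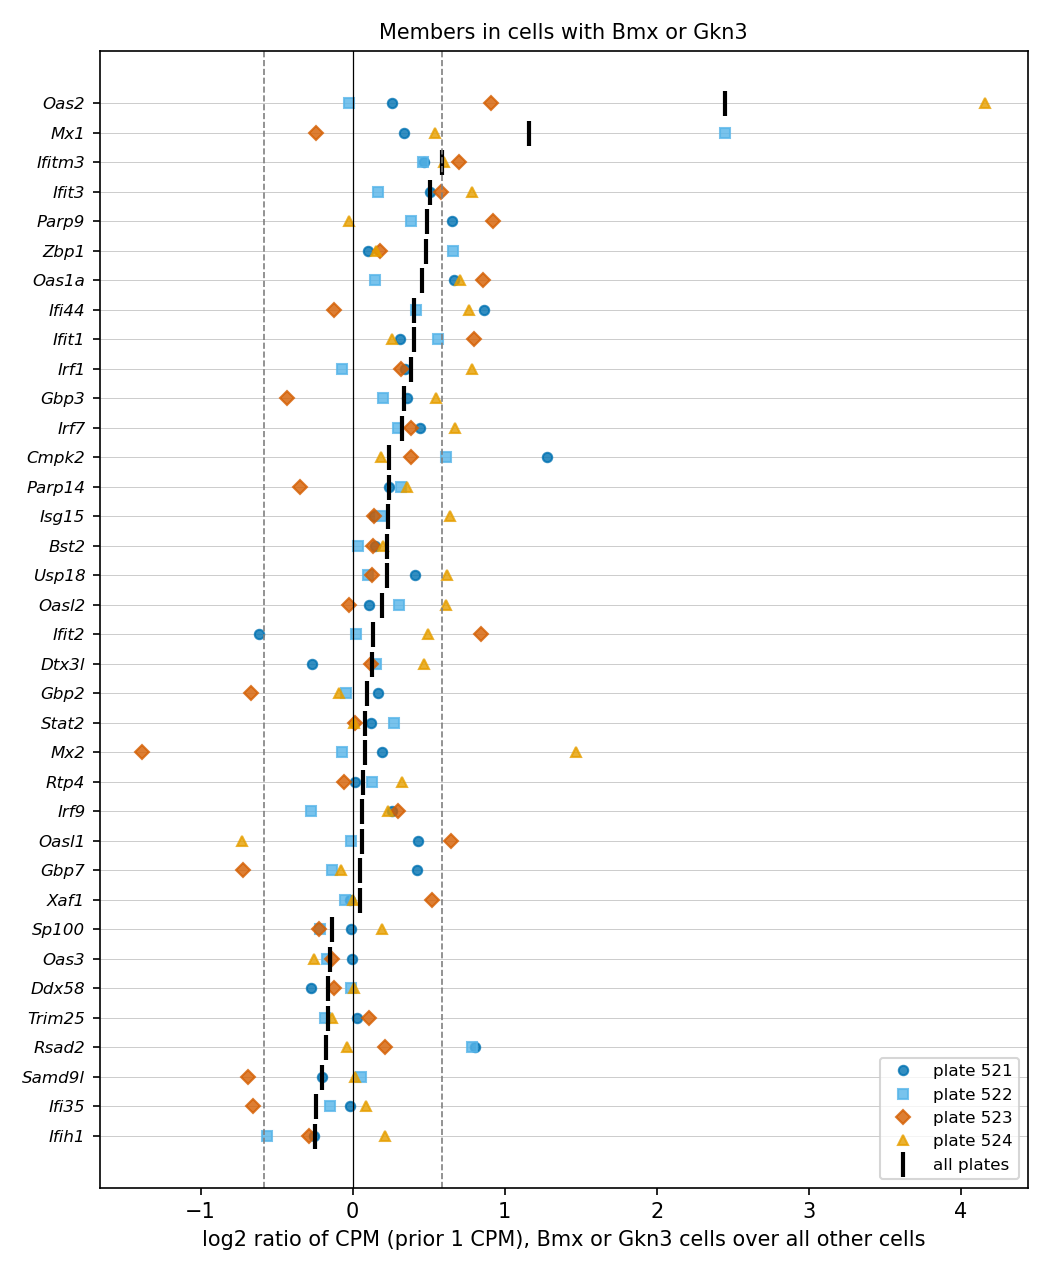
Log2 ratio of CPM (1 CPM added) in Bmx or Gkn3 cells over all other cells for each of the 36 members (x axis), pooled over plates (black ticks) and within each plate (points); dashed lines mark 1.5-fold. Most ticks lie between 0 and the right dashed line, Ifitm3 sits on that line with all 4 plates on the same side of 0, and Oas2 is pulled out by plate 524.

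The median number of members on per cell was 16 in Bmx or Gkn3 cells and 14 in the others. At least 10 members were read in 85.5% of them (81.5% to 88.9%) and in 81.8% of the others (79.0% to 84.4%). These intervals and those below cover counting error only and do not measure the spread between animals. A higher count of 20 was added after seeing the data. At least 20 members were read in 32.4% of Bmx or Gkn3 cells (121 of 373, 27.7% to 37.5%) and in 15.7% of the others (128 of 814, 13.3% to 18.4%). On plates 521 to 524 the shares were 31.8%, 34.5%, 27.9% and 34.3% against 20.5%, 20.3%, 12.1% and 12.4%, higher in the Bmx or Gkn3 cells of each plate. All 36 members were read in a larger share of the Bmx or Gkn3 cells than of the rest, but so were 84.5% of all genes. The median difference was 6.50 percentage points for members and 3.39 for all genes. The largest were 13.4 points for Usp18 (45.6% against 32.2%) and 12.8 points for Bst2 (74.0% against 61.2%).

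The number of genes read moved with the number of members on, and its part in the difference was not tested. When cells were put into 4 equal bins by genes read within their plate, Bmx or Gkn3 cells had a mean of 12.0, 15.0, 15.9 and 20.3 members on from the lowest to the highest bin, and the others 11.7, 13.8, 14.8 and 17.6. The means lay within 0.34 members in the lowest bin and 2.71 apart in the highest. No test was possible with 1 sample.

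**Figure D5:**
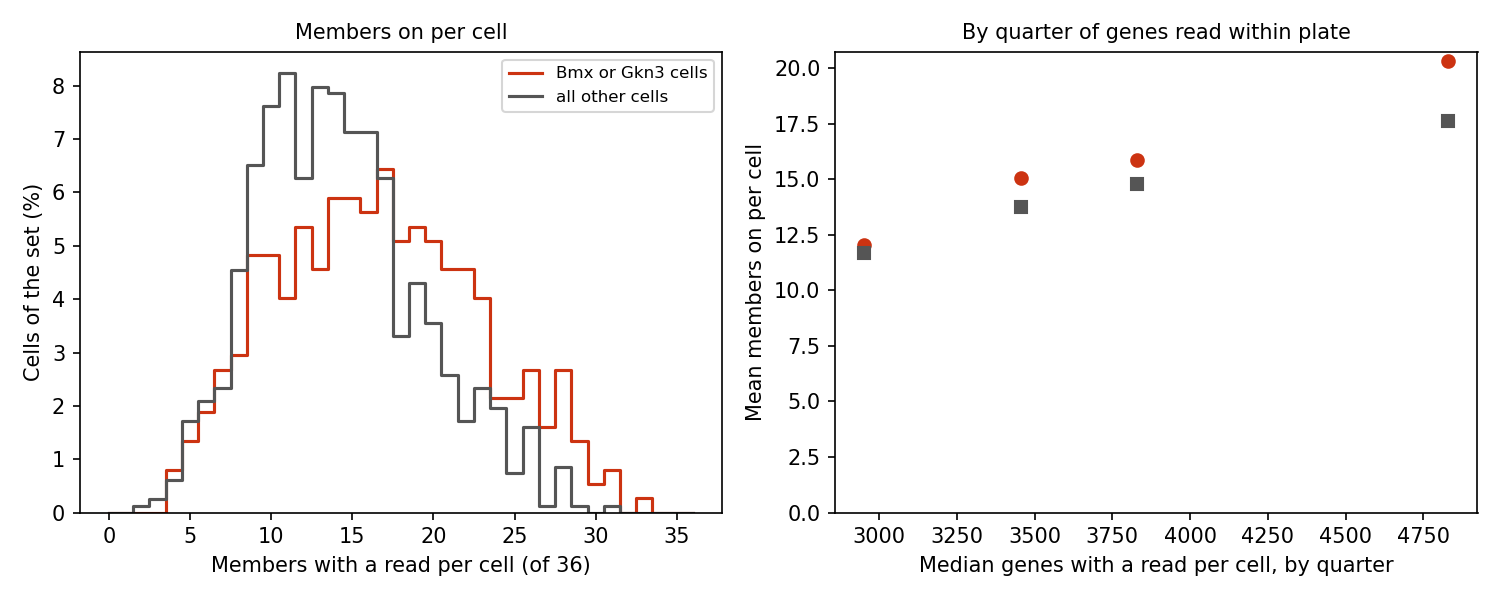
Left, share of cells (percent) by number of members with a read (of 36), for the 373 Bmx or Gkn3 cells and the 814 others. Right, mean members on per cell in 4 equal bins of genes read within plate, placed at the median genes read of the bin (circles Bmx or Gkn3 cells, squares the others): the red curve is shifted to higher numbers, and circles and squares meet in the lowest bin.

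The rest of the pathway differed little in the same comparison. Of 5 receptors tested, 0 passed 1.5-fold. Ifngr1, the gamma receptor chain, came closest (196.9 against 131.5 CPM, log2 ratio 0.58, higher in 4 of 4 plates), Ifnar2 had -0.32 (lower in 4 of 4), and Ifnar1, Il10rb and Ifngr2 had -0.09, -0.09 and 0.13. Of 12 signal transducers tested, 1 was higher, the kinase Tyk2 (0.77, 3 of 4 plates). Of 5 inhibitors tested, 2 were higher, Socs3 (96.9 against 54.4 CPM, 0.82, 3 of 4 plates) and the low Nlrx1 (6.58 against 2.06 CPM, 1.31, 4 of 4). The pooled Socs3 ratio lay above that of every plate (0.76, 0.60, -0.20 and 0.78 on plates 521 to 524). Over all cells of those plates Socs3 stood at 100.2, 102.6, 49.4 and 21.2 CPM. Plates 521 and 522 held 242 of the 373 Bmx or Gkn3 cells. The part of this plate mix in the pooled ratio was not tested. Of 39 other interferon-stimulated genes tested, 2 were higher, the GTPase Igtp (306.1 against 199.7 CPM, 0.61, 4 of 4 plates) and Slfn8 (0.72, 3 of 4), and 1 was lower, Slfn2 (-0.59, 3 of 4). The median of that list, which also holds Trim30a, was 0.13.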

How the data were processed

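Raw read counts per gene and cell were deposited by the authors as 1 table. Per the submitters' processing notes, reads were processed with TopHat2 2.1.1, SAMtools 0.1.18 and featureCounts of Subread 1.4.6-p5 on GRCm38 (mm10). Strand setting and handling of reads with several matches are not given in the sources used here. All 1187 columns have names that match no label, so none was given a sample and all were pooled. The 36 members and the other lists were chosen with earlier results of these data known.

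From the deposited counts, summed reads were scaled to CPM per plate or set of cells. Genes with at least 5 CPM on either side were compared as log2 ratios with 1 CPM added, and a difference counted from 1.5-fold. Cells were thinned to 100000 reads for shares, members on and genes read. Shares have exact 95% binomial and levels exact Poisson intervals, for counting error only. Correlations are Spearman's, within plate and averaged. Every member was described, and non-members were named as the 10 most correlated with the number of members on. No cell was removed and no doublet caller was run; 27 cells had at least 3 markers of another cell type at 100 CPM or more, 6 of them Bmx or Gkn3 cells. Scripts used Python 3.11.15, numpy 2.4.6, scipy 1.17.1, pandas 2.3.3, matplotlib 3.10.9 and, for TMM factors, edgeR 4.0.16 in R 4.3.3, and were tested on simulated data.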

Additional observations from a re-analysis of the deposited data

How the results depend on the processing

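No paired analysis was possible because the columns carry no genotype and no animal, and the result comes from no test. The number of members at least 1.5-fold higher in Bmx or Gkn3 cells, 2 in the report, was 1 when the cells were chosen without thinning, by Gkn3 only, with TMM, with the mean of cell CPM or with 5 CPM added, and 4 by Bmx only. It was 3 with 20 CPM of Bmx and Gkn3 together, with no filter on low values, without plate 521 and without plate 522. No member was 1.5-fold lower under any of 16 settings. The median log2 ratio, 0.16, was 0.25 with at least 20 CPM of Bmx and Gkn3 together, 0.24 by Bmx only, and 0.23 without plate 521 or without plate 523. Without the 12 cells with most Oas2 reads, left out after seeing the data, it was 0.088 and 0 of 33 members were higher, Oas2 (1.49) then being under the filter. The share of cells with at least 10 members on, 83.0%, was 77.3% at 50000 reads, 93.0% without thinning and 76.4% at 10 CPM or more. It was 99.1%, 49.2% and 21.0% when 5, 15 or 20 members were asked for, the last added after seeing the data. The median pair correlation, 0.0987, was 0.107 for members read in at least 20% of cells and 0.0838 with genes read per cell taken out. Without plate 521, 8 members (23.5%; 41.2% of all genes) passed 1.5-fold between plates in place of 16. The cause of these differences was not tested. The median member level ran from 128.1 to 135.8 CPM. With 1 pooled sample, no value here measures the spread between animals.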

Other observations

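Other interferon-stimulated genes outside the 36 had their own plate patterns. Ly6e, a surface protein gene of endothelium, stood at 1921, 2098, 2034 and 2086 CPM on plates 521 to 524 and was read in all cells (100%). The immunity-related GTPase Ifi47 stood at 272.5, 268.4, 130.9 and 142.3 CPM, and Iigp1 at 216.9, 225.2, 107.6 and 153.8 CPM, both lower on plates 523 and 524, as the guanylate-binding members were. Helz2, a helicase gene, ran the other way at 43.2, 92.0, 130.1 and 145.0 CPM. The chemokine gene Cxcl10 stood at 12.4, 24.5, 0.894 and 2.62 CPM and was read in 2.44% of cells.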
